A study of Homo sapiens with 6 samples.

Results

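Expression of VEGFA and 9 other genes of the cellular response to low oxygen (HIF1A, EPAS1, CA9, EGLN1, EGLN3, BNIP3, NDRG1, ANKRD37 and ADM) was examined in pancreatic cancer cells under glucose withdrawal. These are 10 of the 60668 genes in the deposited table, matched to their symbols by Ensembl identifier. VEGFA was chosen by its rise, the difference between the same 6 libraries, so its change is described here without a test. The other 9 were named for their roles as hypoxia-inducible factors (HIFs), as their oxygen sensors and as their targets. MiaPaCa-2, an established human pancreatic ductal adenocarcinoma (PDAC) cell line, was kept for 48 h in medium with 2.5 mM glucose (low glucose, 3 libraries) or with 25 mM glucose (control, 3 libraries), and RNA was sequenced from strand-specific libraries. No drug, knockout or transgene is given for either group, the oxygen level of the cultures is not given in the sources used here, and cells under low oxygen were not analysed here. The treatment protocol text reads 2.5 mM for all 6 samples. The treatment labels read none for 3 samples and low glucose for the other 3, and the titles and the design text describe 3 as controls.

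HIFs are pairs of an oxygen-regulated alpha subunit, such as HIF-1 alpha (HIF1A) or HIF-2 alpha (EPAS1), with the constant partner ARNT. While oxygen is present, prolyl hydroxylases of the EGLN family modify the alpha subunit, the VHL ubiquitin ligase binds it and the protein is degraded, so that oxygen acts mainly on the protein and not on its mRNA. Stabilized HIF raises genes for blood vessel growth (VEGFA, ADM), pH control (CA9), mitophagy (BNIP3), its own hydroxylases (EGLN1, EGLN3) and glycolysis. VEGFA, the main growth factor for endothelial cells, is also known to be raised by the stress transcription factors ATF4 and XBP1 without low oxygen.

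HIF binds DNA at a short core, ACGTG or GCGTG, and the stretches below show where this core stands just upstream of the transcription start in 5 of these genes. They are printed because their genes did different things in low glucose: HIF1A and EGLN1 fell, BNIP3 and ANKRD37 did not pass the test and CA9 had no read. Sequences are from RefSeq (GRCh38.p14), 5′ to 3′ on the strand of the gene and with the core in capitals. A core on the other strand appears as its reverse complement.
HIF1A, chr14:61695284-61695338, plus strand: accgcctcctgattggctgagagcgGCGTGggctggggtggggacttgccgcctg
EGLN1, chr1:231422288-231422325, minus strand: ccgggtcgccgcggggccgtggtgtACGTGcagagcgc
CA9, chr9:35673885-35673927, plus strand: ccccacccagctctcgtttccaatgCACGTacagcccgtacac
ANKRD37, chr4:185396654-185396727, plus strand: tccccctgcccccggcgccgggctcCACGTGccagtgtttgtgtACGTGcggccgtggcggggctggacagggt
BNIP3, chr10:131981998-131982091, minus strand: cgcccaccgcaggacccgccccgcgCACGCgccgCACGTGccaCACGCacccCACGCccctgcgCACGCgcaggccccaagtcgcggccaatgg
The window searched ran from 250 bases before to 50 bases after the start, and 8 of the 10 genes had one in the promoter table used here. The starts are those of RefSeq, and for ANKRD37, BNIP3 and EPAS1 they lie inside the gene span given here. A core was found for 7 of these 8 genes, and EGLN3 was the exception. HIF1A had 2 windows, of which 1 held a core. In the sequences, CA9 carries 1 core at -18, EGLN1 1 at -13, HIF1A 1 at -204, ANKRD37 3 and BNIP3 6, counting each strand (positions are of the first base, relative to the start). EPAS1 (-117) and ADM (-101) each had 1. Across all 35116 windows of this length, 48.4% held a core on either strand, a share of windows and not of genes. The form ACGTG was in 21.4% of windows and the form GCGTG in 36.5%. The E-box that other factors bind, CACGTG, contains the first form on both strands and was in 7.26%. These matches are letters in a window and show no binding.

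The control libraries held 9741183 to 10190154 reads on genes and the low-glucose libraries 10595408 to 13733477. Values are normalized counts (reads per gene over a size factor of the library, as deposited), and the 3 values of a group are always given from the shallowest to the deepest library. The low-glucose libraries are thus replicate 2, replicate 1 and the library of 13733477 reads. The labels tie only the columns of low glucose replicates 1 and 2 to a sample, and the remaining 4 columns were assigned from their names, which run in 3s, 1 run per condition. The control library of 10126218 reads stood farthest from its group, with a chi-square per gene of 8.74 and 18.9 against the other control libraries. The remaining control pair gave 4.63 and the low-glucose pairs gave 1.90 to 2.89, so all control pairs differed more than the low-glucose pairs. Of 7 markers chosen to check the cell line, VIM (60793 in control), KRT8 (42487), KRT18 (22716) and KRT19 (3516) were abundant, KRT7 was near 0 (values of 2.24 to 11.5) and CDH1 and EPCAM were at or near 0. KRT8, KRT18 and KRT19 fell (log2 fold changes of -1.01, -0.74 and -0.83) and VIM rose (0.42, limma adjusted p = 0.00819, past the threshold in 10 of 15 alternatives). KRT8 and KRT18 share 525 bp of exon on opposite strands. Of 4 markers of other cell types, PTPRC (leukocytes) had no read, PECAM1 and COL1A1 had at most 3.34 and 13.5, and CDH5, an endothelial cadherin, fell from 173 ± 15.7 to 10.5 ± 1.38 (SD, n = 3, limma adjusted p = 1.74e-08). The level of these 4 per transcript length, in TPM (scaled to the same total in every library), summed to 6.84 to 8.75 in the control libraries and to 0.516 to 0.822 in the others. CDH5 alone had a mean of 7.77 TPM in control and of 0.461 in low glucose, so these sums mostly show CDH5. The 7 line markers summed to 11673 to 14485 TPM in control and to 10468 to 10863 TPM in low glucose. The part of either shift in the results was not tested. In bulk libraries, fewer cells of a type and less RNA per cell cannot be told apart.

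VEGFA (ENSG00000112715.22, chromosome 6 of hg38, 43770184 to 43786487, plus strand) had normalized counts of 1086, 970 and 1075 in control and of 2973, 3178 and 2951 in low glucose. The 3 low-glucose values lay close together and far above the 3 control values. The mean was 1044 ± 64.4 (SD, n = 3) in control and 3034 ± 125 (SD, n = 3) in low glucose, a ratio of 2.91. On the log2(value + 1) scale the difference was 1.54 (standard error 0.0769), and it was 1.49 to 1.70 over 15 other ways of processing the data, which included leaving out each library in turn. VEGFA was not at the top of the transcriptome: 740 of the genes tested (3.51%) had a larger log2 fold change. An unnamed lncRNA, ENSG00000272114, shares 188 bp of exon with VEGFA on the other strand. Its log2 fold change was 1.54, with reads going from 106 to 113 per library up to 353 to 418. Like that of VEGFA, its change is given without a test. Because the strand setting of the counting is not given, reads over the shared bases could have come from either gene. The lncRNA held 11.6% as many reads as VEGFA, and its part in the value of VEGFA was not tested.

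NDRG1 (ENSG00000104419.14, chromosome 8, 133237175 to 133302022, minus strand), a differentiation-linked stress gene that hypoxia raises in many cell types, had control values of 126, 149 and 118 and low-glucose values of 386, 414 and 386. All 3 low-glucose libraries were above all 3 control libraries. Its mean rose from 131 ± 16.5 to 395 ± 16.0 (SD, n = 3), a ratio of 3.02. The difference was 1.59 on the log2 scale with a standard error of 0.116 (adjusted p = 2.96e-07 with limma, over all 21101 genes tested). The rise passed in all 15 alternatives, with log2 fold changes of 1.52 to 1.69. Only genes with a mean of at least 1 were tested, which left out CA9, and NDRG1 was the only 1 of the other 8 besides VEGFA to rise. Across the transcriptome, 14.7% of the genes tested rose (3111), 16.2% fell (3417) and 30.9% changed in either direction, a split that scaling by library size turned to 3933 higher and 2646 lower. Against this background, 3 of the 8 changed (NDRG1 up, HIF1A and EGLN1 down), or 37.5%, a share near that of all genes. DESeq2 and edgeR also called these 3, and neither gave an adjusted p for EGLN3. Their backgrounds of 31.5% and 42.8% likewise cover only genes with an adjusted p in that fit. Groups did not overlap for these 3 of the 8, against 43.9% of all genes tested (22.1% above and 21.8% below the control libraries).

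**Figure D1:**
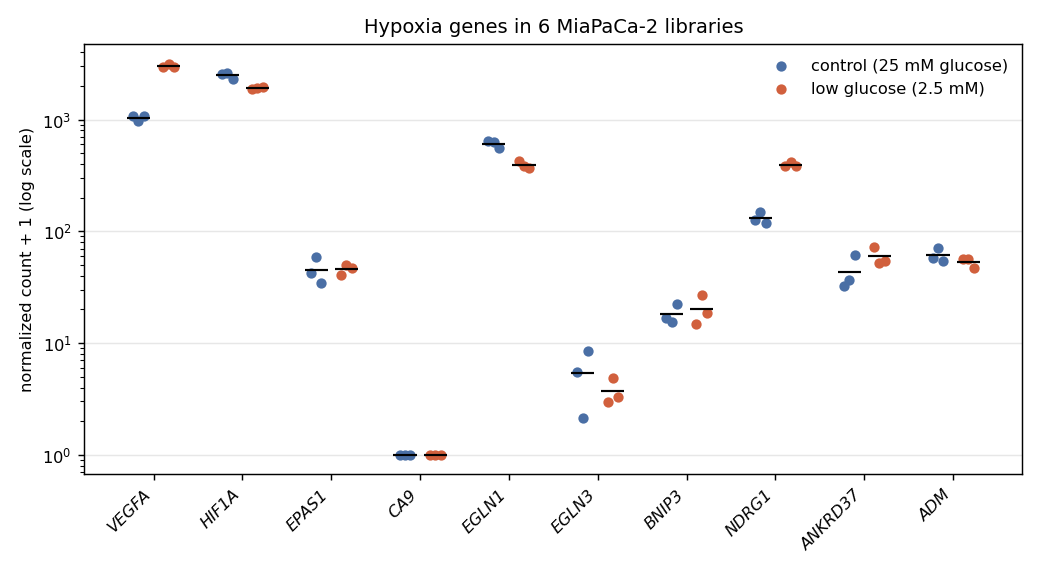
Normalized counts (plus 1, log axis) of the 10 genes in each of the 3 control and 3 low-glucose libraries. Points are libraries, and bars are group means. VEGFA and NDRG1 stand clearly higher in low glucose (ratios of 2.91 and 3.02), HIF1A and EGLN1 stand lower, CA9 is at 0 in every library and the groups overlap for the other 5.

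The alpha subunits did not rise. HIF1A (ENSG00000100644.17, chromosome 14, 61695513 to 61748259, plus strand) had values of 2551, 2634 and 2300 in control and of 1871, 1917 and 1978 in low glucose. All low-glucose libraries were below all control libraries, and the ratio of the means was 0.770. The mean fell from 2495 ± 174 to 1922 ± 53.9 (SD, n = 3), a log2 difference of -0.37 with a standard error of 0.0766 (limma adjusted p = 0.00188). This call passed in 14 of 15 alternatives and was lost after quantile normalization, where the log2 fold change was -0.16 (limma adjusted p = 0.113). HIF1A-AS1, an antisense lncRNA that shares 133 bp of exon with HIF1A, had a log2 fold change of -0.40 (limma adjusted p = 0.00889). It held 13.8% as many reads as HIF1A, and reads over the shared bases could have come from either gene. EPAS1 (ENSG00000116016.14, chromosome 2, 46293667 to 46386697, plus strand), the alpha subunit best known from endothelium and renal cancer, had values of 41.5, 58.0 and 33.2 in control and of 39.5, 49.1 and 46.2 in low glucose. The groups overlapped. The log2 fold change was 0.05 (95% confidence interval -0.45 to 0.56, limma adjusted p = 0.890).

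Of the prolyl hydroxylases that read oxygen, EGLN1 fell and EGLN3 was almost silent. EGLN1 (ENSG00000135766.9, chromosome 1, 231363751 to 231422287, minus strand), the main HIF hydroxylase and itself a HIF target, had values of 640, 630 and 560 in control and of 428, 388 and 371 in low glucose. No low-glucose library reached the lowest control library. The mean fell from 610 ± 43.8 to 396 ± 29.0 (SD, n = 3), a ratio of 0.649 and a log2 difference of -0.62 with a standard error of 0.0936 (limma adjusted p = 0.000166), and this passed in all 15 alternatives. ENSG00000287856, a gene on the same strand, shares 3004 bp of exon with EGLN1 and had 0 reads in every library. How reads over these shared bases were counted was not tested, so the level of EGLN1 is uncertain to that extent. EGLN3 (chromosome 14, 33924227 to 34462774), a hydroxylase that is among the most strongly hypoxia-induced genes in many cells, had 4, 1 and 7 reads in control and 2, 4 and 3 in low glucose. At this depth no difference was detectable (log2 fold change -0.35, 95% confidence interval -1.65 to 0.94, limma adjusted p = 0.704).

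The remaining targets were low or absent. CA9 (ENSG00000107159.13, chromosome 9, 35673928 to 35681159), the membrane carbonic anhydrase used as a marker of tumor hypoxia, had 0 reads in all 6 libraries. The limit that a count of 0 allows, 3 reads, corresponds to 0.264 to 0.402 TPM, depending on the library. CA9 shares 571 bp of exon with ARHGEF39 on the other strand, which had 157 to 242 reads. The limit takes all 1546 bases of the CA9 transcript as countable. It would be higher if reads over shared bases were not counted for CA9. CA9 could not be tested. BNIP3 (chromosome 10, 131967684 to 131981967), a mitophagy receptor, had values of 15.7, 14.5 and 21.4 in control and of 13.8, 26.0 and 17.4 in low glucose, with a log2 fold change of 0.12 (95% confidence interval -0.60 to 0.83, limma adjusted p = 0.830). ADM (chromosome 11, 10305073 to 10307397), the vasodilator peptide adrenomedullin, had values of 57.2, 70.2 and 53.5 against 55.3, 55.8 and 46.2, with a log2 fold change of -0.19 (95% confidence interval -0.61 to 0.22, limma adjusted p = 0.495). For both genes the groups overlapped. The upper bounds of the intervals of EPAS1, EGLN3, BNIP3 and ADM all lie below the log2 fold change of NDRG1. The log2(value + 1) scale understates the change of low genes, so this comparison is least firm for EGLN3, at 1 to 7 reads.

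ANKRD37 (chromosome 4, 185396021 to 185400628), a small ankyrin-repeat protein and a direct HIF-1 target, lay between these patterns. Its values were 31.4, 35.7 and 59.9 in control and 72.1, 51.0 and 53.0 in low glucose, so the control library of 10190154 reads fell among the low-glucose libraries. The log2 fold change was 0.50 (95% confidence interval -0.04 to 1.05, limma adjusted p = 0.153). Without that control library it was 0.78 and passed (limma adjusted p = 0.0191), the only 1 of 15 alternatives in which it did, in a range of 0.0191 to 0.446. ANKRD37 shares 909 bp of exon with UFSP2 on the other strand, which had 110 to 199 reads against the 28 to 73 of ANKRD37, and UFSP2 had a log2 fold change of 0.34 (limma adjusted p = 0.0595). The value of ANKRD37 is uncertain to that extent.

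**Figure D2:**
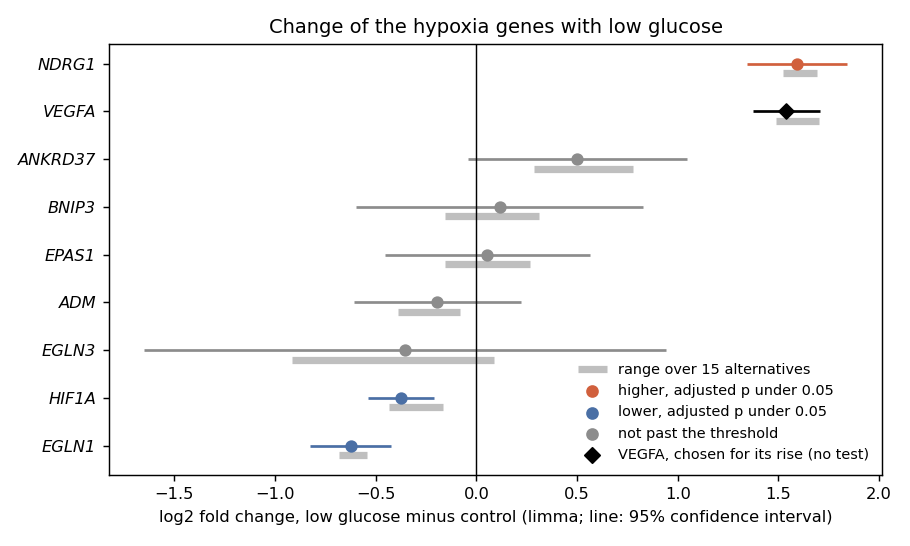
Log2 fold change (low glucose minus control) of the 9 genes with enough reads to fit, with 95% confidence intervals from limma as thin lines and the range over 15 alternative analyses as grey bars. NDRG1 (1.59) and VEGFA (1.54, a diamond because it was chosen for its rise) sit apart on the right, HIF1A (-0.37) and EGLN1 (-0.62) lie left of 0 with intervals that exclude it, and the intervals of the other 5 include 0.

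Levels per transcript length changed their order between the conditions. In control, HIF1A was the most abundant of the 10 at 115 ± 11.2 TPM (SD, n = 3), followed by VEGFA at 52.5 ± 2.69 and EGLN1 at 25.6 ± 2.53. ANKRD37 (9.74 ± 3.24), NDRG1 (7.87 ± 1.19) and ADM (7.36 ± 1.25) came next and did not differ beyond their spread. BNIP3 (2.02 ± 0.369) and EPAS1 (1.57 ± 0.485) overlapped as well, and EGLN3 (0.289 ± 0.205) was lowest before CA9. In low glucose VEGFA came first at 149 ± 5.89 TPM and HIF1A second at 86.4 ± 3.37, with no overlap between their libraries in either condition. NDRG1 reached 23.2 ± 0.914 TPM and passed EGLN1 (16.2 ± 1.03), whose libraries overlapped those of ANKRD37 (13.3 ± 2.52). The places of EGLN1 and ANKRD37 are uncertain, because each shares long stretches of exon with another gene. ADM (6.23 ± 0.582), BNIP3 (2.19 ± 0.716), EPAS1 (1.55 ± 0.177) and EGLN3 (0.177 ± 0.0656) kept their places, and BNIP3 and EPAS1 again overlapped.

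The oxygen-sensing machinery around the HIF subunits and EGLN enzymes passed the test about as often as other genes. Of 17 genes (HIF subunits, hydroxylases, the VHL ligase and coactivators), 16 were tested, 1 rose, 3 fell and 12 did not pass. The share called was 25%, beside 30.9% of all genes tested, with a median log2 fold change of -0.08 against 0.05 for all genes tested. HIF1A and EGLN1 are among the 3 that fell. CUL2, the cullin scaffold of the VHL ligase, also fell, from 649 ± 7.36 to 504 ± 25.2 (SD, n = 3, log2 fold change -0.37, limma adjusted p = 0.00363). CITED2, which competes with HIF for the coactivators CBP and p300, rose from 745 ± 40.2 to 879 ± 15.9 (SD, n = 3, log2 fold change 0.24, limma adjusted p = 0.0318), but passed in only 9 of 15 alternatives. ARNT (0.07), VHL (0.04), HIF1AN (-0.05) and EGLN2 (0.06) had log2 fold changes near 0, with limma adjusted p-values of 0.598 to 0.845. HIF3A, with 1 read in all, was not tested.

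Within the VEGF family, the ligands did not move together and receptors were scarce. Apart from VEGFA, 6 of 9 ligands and receptors were tested, of which 1 rose and 2 fell (50%, beside 30.9% of all genes tested). VEGFB, a ligand linked to fatty acid uptake, had values of 131, 160.5 and 148 in control and of 224, 225 and 220.5 in low glucose, and all low-glucose libraries were higher (log2 fold change 0.61, limma adjusted p = 0.00128). VEGFC, the lymphatic vessel ligand, had values of 478, 457 and 430 in control and of 326, 374 and 293 in low glucose. It fell in every low-glucose library relative to every control library (log2 fold change -0.46, limma adjusted p = 0.00367). NRP1, a VEGF co-receptor, fell from 33.8 ± 10.3 to 11.5 ± 1.69 (SD, n = 3, log2 fold change -1.45, limma adjusted p = 0.00275). PGF (0.18), FLT1 (1.27) and NRP2 (0.00) did not pass. KDR, the main signaling receptor of VEGFA, had no read in any library, where 3 reads would be 0.0699 to 0.106 TPM, and VEGFD and FLT4 were below the mean of 1 needed for a test. Per transcript length, VEGFA and VEGFC stood at 52.5 and 36.6 TPM in control and at 149 and 26.0 TPM in low glucose.

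**Figure D3:**
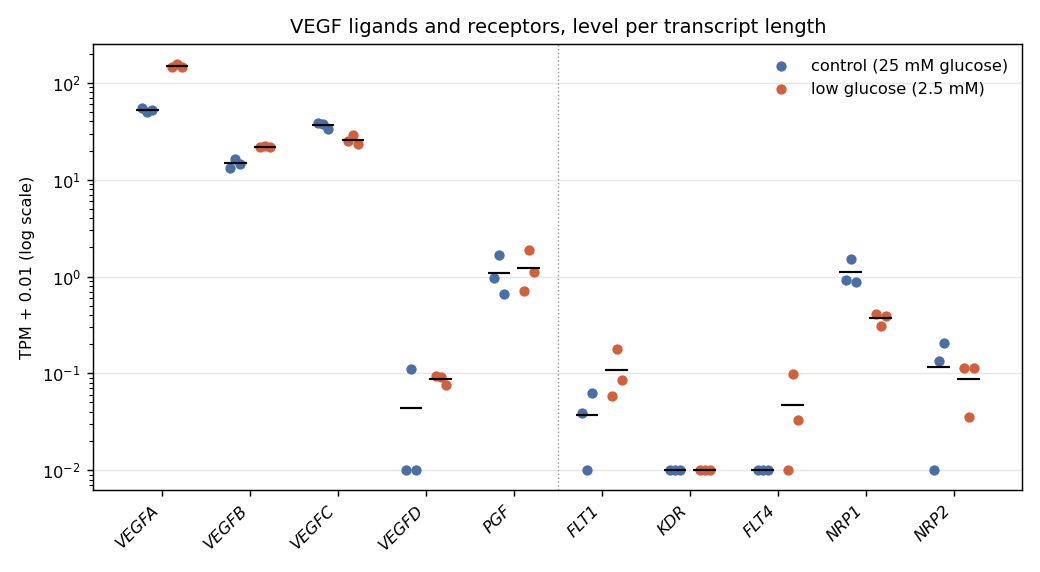
Level per transcript length (TPM plus 0.01, log axis) of VEGF ligands (left of the dotted line) and receptors (right) in each library, with group means as bars. VEGFA and VEGFB are higher and VEGFC and NRP1 lower in low glucose, and KDR is at 0 in all 6 libraries.

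Beyond the 10 genes, known HIF targets outside glycolysis included genes that rose and genes that fell. Of 39 such genes (7 of them among the 10), 37 were tested, 13 rose, 6 fell and 18 did not pass, with a median log2 fold change of 0.22 (0.05 for all genes tested). The share called was 51.4%, beside 30.9% of all genes tested, of which 14.7% rose and 16.2% fell. The share of the list that fell is thus near that of all genes, and the share that rose is above it. All genes tested include those down to a mean of 1, where few calls lie. At a mean of at least 20 stood 2573 of the 3111 rises and 3308 of the 3417 falls. Shares were not matched for level, here or for the other lists, so the part of level in them was not tested. DDIT4, an inhibitor of mTORC1, rose from 1006 ± 95.9 to 3710 ± 204 (SD, n = 3, log2 fold change 1.88, limma adjusted p = 4.47e-09). NDRG1 came next, then VLDLR, a lipoprotein receptor (1.56, limma adjusted p = 6.83e-07), and MXI1, a MYC antagonist (1.26, limma adjusted p = 2.42e-05). For VLDLR, VLDLR-AS1 and another lncRNA lie on the other strand with 29.4% and 18.6% as many reads, and their log2 fold changes were 1.13 and 1.12. Reads over their shared bases could have come from either strand. Among those that fell were the carbonic anhydrase CA12 (-1.39, limma adjusted p = 0.0319, past the threshold in 8 of 15 alternatives), the collagen lysyl hydroxylase PLOD2 (-1.31, limma adjusted p = 0.0156, past the threshold in 11 of 15 alternatives), EGLN1 and the adenylate kinase AK4 (-0.49, limma adjusted p = 0.000648). CA12 and PLOD2 are low-count genes, at 6.42 ± 3.87 and 11.4 ± 4.93 (SD, n = 3) in low glucose.

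More of the glycolytic HIF targets fell than rose. Of 20 tested, 3 rose, 7 fell and 10 did not pass, with a median log2 fold change of -0.18. Beside the 14.7% of all genes tested that rose and the 16.2% that fell, the share that rose is near the background and the share that fell is above it. The list and all genes tested were again not matched for level. The mutase PGAM1 (-0.56, limma adjusted p = 6.41e-05), the enolase ENO1 (-0.54, limma adjusted p = 0.000598), the isomerase TPI1 (-0.53, limma adjusted p = 0.000204) and the hexokinase HK1 (-0.43, limma adjusted p = 0.00276) fell most. ENO2 rose (0.86, limma adjusted p = 2.07e-05), as did PDK1, the kinase that closes pyruvate entry into mitochondria (0.58, limma adjusted p = 0.00948), and HK2 (0.44, limma adjusted p = 0.0025). PDK1 passed in 13 of 15 alternatives, and HK1 and HK2 in 14 each. PDK1-AS1, which shares 445 bp with PDK1 on the other strand, held 47.2% as many reads and had a log2 fold change of 0.02. The glucose transporter SLC2A1, a classical HIF target, had a log2 fold change of 0.09 and did not pass (limma adjusted p = 0.375). The value of ALDOA is uncertain, because it held 81.8 to 108 normalized counts while a lncRNA that shares 520 bp with it on the other strand held 941 to 1378 reads and another gene shares 1639 bp on its own strand. In a compact signature of 15 genes often used to score tumor hypoxia, VEGFA and NDRG1 were again the genes with the largest rises. Of its other 14 genes, 2 rose (NDRG1 and P4HA1), 7 fell and 5 did not pass, and the median log2 fold change was -0.34. The share called was 64.3%, beside 30.9% of all genes tested, and P4HA1 passed in 12 of 15 alternatives. This signature is not separate from the glycolytic targets, as both hold SLC2A1, ALDOA, TPI1, PGAM1, ENO1 and LDHA. The falls of TPI1, PGAM1, ENO1 and LDHA are thus counted in both lists. TUBB6, a tubulin, fell by 0.59 on the log2 scale, and the phosphatase CDKN3 by 0.54, beside PGAM1 and ENO1 (limma adjusted p = 1.98e-05 and 0.000487). TUBB6 shares 837 bp with AFG3L2 on the other strand, which held 51.7% as many reads and had a log2 fold change of -0.53.

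**Figure D4:**
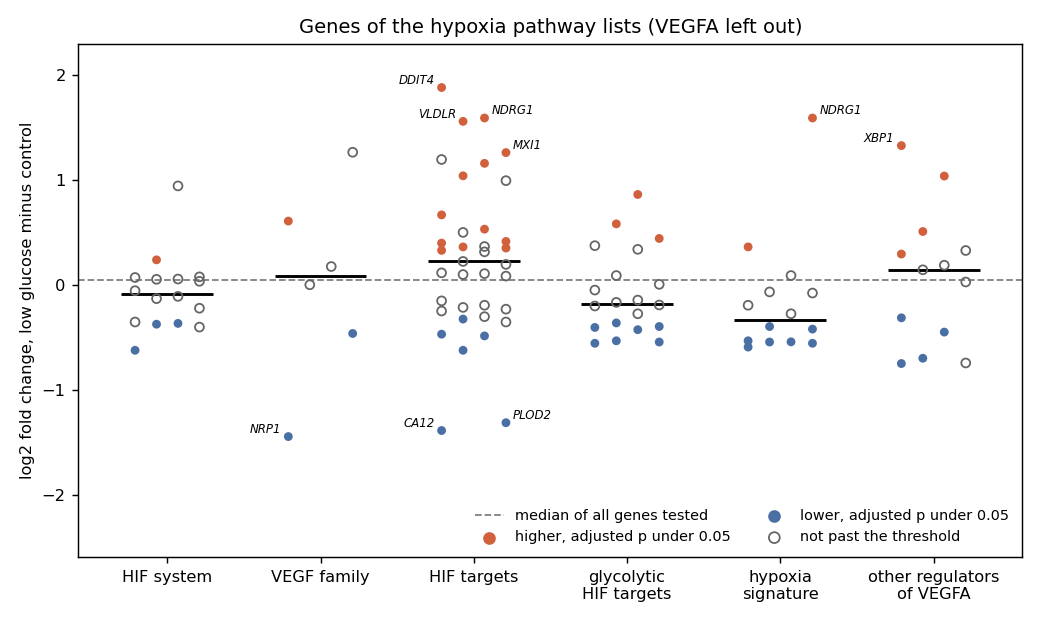
Log2 fold change of each tested gene in 6 lists of the hypoxia pathway, without VEGFA. Filled points passed the threshold (limma adjusted p under 0.05), open points did not, black bars are list medians and the dashed line is the median of all genes tested (0.05). The HIF targets spread to both sides with a median of 0.22, whereas the medians of the glycolytic targets (-0.18) and of the hypoxia signature (-0.34) lie below the line. The glycolytic targets and the signature share genes, among them TPI1, PGAM1, ENO1 and LDHA, which fell.

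Known regulators of VEGFA other than HIF included some that rose with it. Of 14 genes for transcription factors and RNA-binding proteins, 13 were tested, 4 rose, 4 fell and 5 did not pass, with a median log2 fold change of 0.14. The share called was 61.5%, again beside 30.9% of all genes tested and without matching for level. XBP1, a transcription factor of the unfolded protein response, had values of 906, 980 and 958 in control and of 2392, 2437 and 2322 in low glucose (log2 fold change 1.33, limma adjusted p = 1.86e-08). ATF4, the effector of the integrated stress response, rose from 2433 ± 438 to 4946 ± 142 (SD, n = 3, log2 fold change 1.04, limma adjusted p = 7.66e-06). ESRRA (0.51, limma adjusted p = 0.000177, with 284 bp shared with TRMT112 on the other strand) and JUN (0.30, limma adjusted p = 0.00621) rose less. HNRNPL, which binds the VEGFA mRNA under low oxygen, fell by 0.75 on the log2 scale (limma adjusted p = 1.78e-05), STAT3 by 0.70 (limma adjusted p = 3.50e-05), ELAVL1, which encodes the mRNA-stabilizing protein HuR, by 0.45 (limma adjusted p = 0.000222), and SP1 by 0.31 (limma adjusted p = 0.0436, past the threshold in 6 of 15 alternatives). PPARGC1A, the coactivator through which ESRRA is known to raise VEGFA in nutrient shortage, had no read. RNA levels alone do not show the activity of any of these factors.

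Among 10148 other genes with a mean of at least 100, the ones whose profile over the 6 libraries was nearest to that of VEGFA were BIRC3, an inhibitor of apoptosis, SESN2, a stress-induced sestrin, the lncRNA ENSG00000272114 on the other strand of VEGFA, SYVN1, a ubiquitin ligase of the endoplasmic reticulum, and CEBPB, a transcription factor. Nearness was the root mean square difference in log2(value + 1) relative to the control mean, and it was 0.0408, 0.0748, 0.0785, 0.0828 and 0.0937, in that order. BIRC3, for example, had values of 217, 202 and 220 in control and of 615, 619 and 628 in low glucose. NDRG1 ranked 33 at 0.157. With 6 libraries in 2 conditions this measure is set mostly by the size of the change.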

How the data were processed

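By their account, the authors trimmed reads with Trim Galore, mapped them to hg38 with STAR 2.7.0e and tested with DESeq2. RSEM is also among the software they list, but whether it gave these gene counts, the strand setting and the annotation are not given in the sources used here. The deposited table holds signal values, meaning reads per gene over a size factor, and all of them (100%) were whole multiples of 1 read within 0.01 reads, which gave back the reads. Of the identifiers, 99.5% matched Gencode v44. Because the values are normalized, limma 3.58.1 (R 4.3.3, lmFit, eBayes with trend, two-sided) was run on log2(value + 1), which understates the change of low genes. It covered 21101 genes (mean at or above 1), with Benjamini-Hochberg adjustment over all of them and a threshold of 0.05. TPM used the recovered reads and canonical transcript lengths, and exon overlaps came from Gencode v44. Alternatives were library size, TMM or quantile scaling, no filter, a minimum mean of 5, a pseudocount of 0.1, no variance trend, DESeq2 1.42.0 and edgeR 4.0.16 on the recovered reads, and each library left out in turn. Scripts were tested on simulated data. The genes, the lists and the naming rule (the 10 genes, up to 4 rises and 4 falls per list, genes overlapping the 10, and the 5 genes nearest to VEGFA) were chosen with earlier results of these data known. List genes that did not pass, genes overlapping other list genes, and BNIP3L were named after their values were seen. The design text calls the 3 libraries of a group biological replicates. Limits from reads cover counting error only.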

Additional observations from a re-analysis of the deposited data

How the results depend on the processing

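No paired analysis was possible because replicate numbers are tied to only 2 columns, both of low glucose. Of the 8 tested genes other than VEGFA, 2 to 4 passed in the 15 alternatives, with 2 under quantile normalization. Without a variance trend 4090 genes passed over the transcriptome, 12 among the HIF targets and 6 among the glycolytic ones. With 1 library left out the transcriptome count was 4298 (without low glucose replicate 1) to 7173. Of the 10 genes, those whose direction changed passed in no fit. EPAS1 and BNIP3 were both at -0.16 after quantile normalization, and with 1 library left out the log2 fold changes were -0.13 to 0.26 for EPAS1 (-0.01 without low glucose replicate 1), -0.92 to 0.086 for EGLN3 and -0.12 to 0.31 for BNIP3. EGLN3 had a value in 12 alternatives. Scaling by library size gave 6 regulators of VEGFA higher and 3 lower, against 4 and 4. Among the other list genes, PGK1 and MIF changed direction between alternatives and each passed in 1. The cause of these shifts was not tested. Depth limits EGLN3, BNIP3 and CA9 most.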

Other observations

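Some genes on the opposite strand of a hypoxia gene moved with it and others did not, and the pairs given here were picked after their values were seen. LOXL2-AS1 had a log2 fold change of -0.53 beside -0.47 for LOXL2, a lysyl oxidase, and shares 178 bp with it. SPSB2, which shares 14 bp with TPI1, had 0.96 beside -0.53. For GAPDH, a lncRNA that shares 422 bp with it held 47.5% as many reads, and its log2 fold change was 0.01 beside -0.05. Whether reads were assigned by strand was not tested, so a shared change can be that of the same reads, counted for either gene.

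BNIP3L, the paralog of BNIP3 in mitophagy, stood at 54.4 TPM in low glucose and rose (log2 fold change 0.53, limma adjusted p = 0.000124). PNMA2, which shares 330 bp with BNIP3L on the other strand, had a log2 fold change of 1.10 and 56.9% as many reads.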
